A study of Mus musculus with 12 samples.

Results

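The heat shock proteins and their co-chaperones are described here in hearts of C57BL/6J mice, 6 from a Control group and 6 from a group given carbon tetrachloride (CCl4), a liver toxicant used to model cirrhosis. The comparison asks how chaperone messenger RNA in the heart differs between these groups. The labels give heart as the tissue and state no sex, age, dose, route, duration or heart chamber, and no label ties a Control heart to a CCl4 heart. Members were taken by gene symbol: the Hspa, Hspb, Hspd, Hspe and Hsph genes, the Hsp90 genes, the J-domain genes of classes Dnaja, Dnajb and Dnajc, Bag1 to Bag6, and Cryab. Of 78 such symbols without a pseudogene mark, 69 reached 0.5 RPKM (reads divided by gene length and library size) in at least 6 of the 12 hearts and are the members, out of 31722 symbols in all. The 9 others were Hspb9, Dnajb3, Dnajb7, Dnajb13, Dnajc5b, Dnajc5g, Dnajc6, Dnajc22 and Bag4, which reached 0.5 RPKM in no heart. Bag4 came nearest, with a highest value of 0.385 RPKM, and Dnajc27 was just inside with means of 0.524 and 0.459 RPKM and Dnajb14 with means of 0.609 and 0.575 RPKM in Control and CCl4 hearts.

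Heat shock proteins hold, fold or hand on other proteins. Hsp70 proteins bind exposed stretches of a client in a cycle driven by ATP, J-domain proteins bring the client and start the hydrolysis, and Hsp110 and BAG proteins release the nucleotide. Hsp90 proteins take over clients near their folded state, chaperonins enclose them, and small heat shock proteins keep them soluble without ATP. Cardiomyocytes hold much of the small class, which binds the sarcomere and the intermediate filament desmin, and mutations of CRYAB and BAG3 cause inherited cardiomyopathy. Separate sets of these proteins serve the cytosol, the mitochondria and the endoplasmic reticulum, and the members are grouped that way below.

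The relative depth of the libraries, recovered from the steps in the RPKM values, ran from 26352405 to 63407456 steps. Replicates 2 and 5 of either group had at most 0.126 RPKM of Xist and 6.18 to 7.79 RPKM of the Y-linked Ddx3y, and the remaining 4 hearts per group had 19.4 RPKM of Xist or more. Genes of the mitochondrial genome and their nuclear copies took 29.4% to 37.8% of the steps in Control and 31.6% to 43.7% in CCl4 hearts, and counts with them left out of the scaling are given below. Of 10 cardiomyocyte marker genes, which include Myh6 and Tnnt2, 8 had a lower mean in CCl4 hearts, and their summed level was 27690 to 34740 RPKM in Control and 19160 to 29620 RPKM in CCl4 hearts. All 8 endothelial markers had a lower mean and all 7 fibroblast markers a higher mean in CCl4 hearts. All 4 tested red cell markers were higher at an unadjusted p under 0.05 in limma, against 1.6% of all genes. The summed level of the red cell markers was 106.6 to 217 RPKM in Control and 143.3 to 227.1 RPKM in CCl4 hearts. All 6 tested macrophage and immune markers had a higher mean (summed 42.49 to 63.19 and 30.42 to 189 RPKM) and 6 of 7 smooth muscle and pericyte markers a lower mean (summed 444.6 to 588.2 and 371.1 to 484.8 RPKM). The 7 atrial markers, led by Nppa, summed to 623.1 to 15100 RPKM in Control and 853.7 to 11780 RPKM in CCl4 hearts. Of the 6 tested, with a median log2 fold change of -1.23, 5 had a lower mean and Nppa a higher mean (0.58). The part of these cell types in the results was not tested, except that an atrial score was tried as a covariate. In bulk tissue fewer cells of a type and less RNA per cell cannot be told apart.

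Several libraries stood apart in the members. Control replicate 1 had the lowest Control value in 28 of the 69 members, and in 10 of the 12 members named below as lower at an unadjusted p under 0.05. Its median deviation from the Control mean was -0.063 over the members and 0.020 over all genes tested. How often it was the lowest Control heart over all genes was not counted. Control replicate 1 also had the highest summed atrial markers of all hearts (15100 RPKM, against 623.1 to 4479 RPKM in the other Control hearts) and the highest fibroblast, red cell and adipocyte sums of its group. CCl4 replicate 1 had the highest CCl4 value in 4 of those 12, and the lowest atrial sum of its group (853.7 RPKM). Most of that sum was Nppa (801.7 RPKM). Of Myl7, another atrial marker, CCl4 replicate 1 had 15.8 RPKM, and CCl4 replicate 6 had the lowest value, 0.811 RPKM. With the atrial score as a covariate 12 members were lower at an unadjusted p under 0.05, 11 of them the same genes, against 8.64% of all genes. CCl4 replicate 2 had the lowest CCl4 value in 38 members, with a median deviation of -0.32 from the Control mean on the log2(RPKM + 1) scale. Over all genes tested the median deviation of CCl4 replicate 2 was -0.25, so most of this shift was not particular to the members. In CCl4 replicate 3 the endoplasmic reticulum members deviated by a median of 0.37 and the mitochondrial members by -0.42, against 0.14 over all genes tested. That heart also had the lowest summed cardiomyocyte markers (19160 RPKM) and the highest summed fibroblast markers (898 RPKM, against 97.02 to 470.8 RPKM in the other CCl4 hearts). Results are therefore given with all 12 libraries and, where it matters, without both libraries numbered 1, a choice made after these values were seen. Smaller p-values and lost overlaps without these 2 libraries are in part built in by that choice, and are given as description only. Whether the labels of these 2 libraries were exchanged was not tested, and every group value follows the labels as given.

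**Figure D1:**
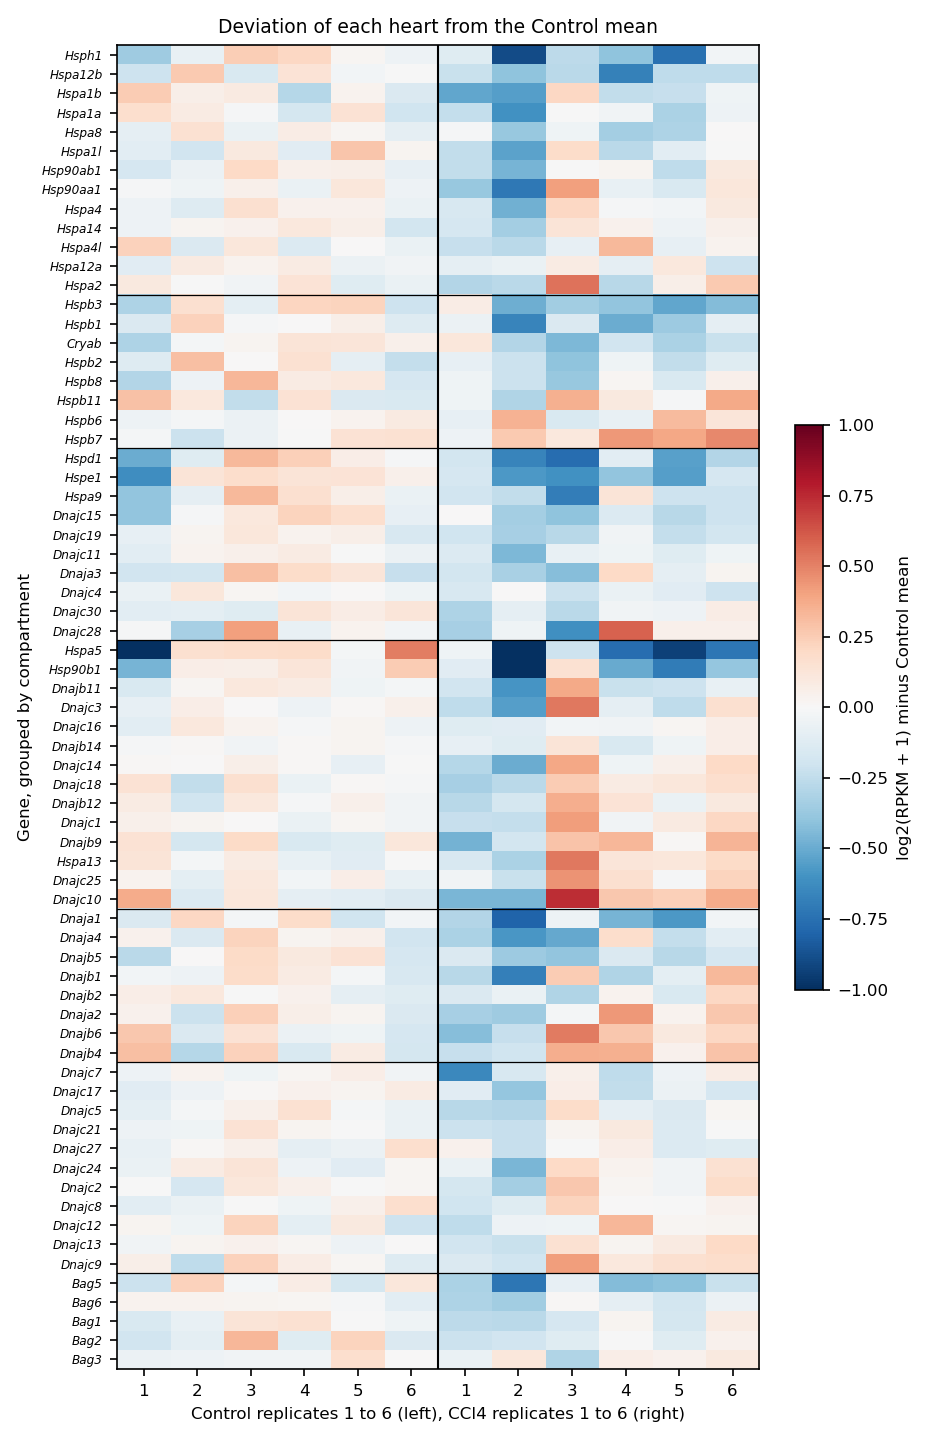
Each column is a heart and each row a member, grouped by compartment; colour is log2(RPKM + 1) minus the Control mean of that gene, with values past -1 or 1 drawn in the end colours. CCl4 replicate 2 is blue in most rows, CCl4 replicate 3 is red in the endoplasmic reticulum block and blue in the mitochondrial block, and Control replicate 1 is dark blue at Hspa5 and Hspe1.

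In CCl4 hearts most chaperone messages had a lower mean than in Control hearts by small amounts, and no single member passed the test across all genes. The mean was lower for 52 of the 69 members and higher for 17, and the median log2 fold change was -0.10. Over the 14087 genes tested, 65.7% had a lower mean and the median was -0.048. No member had a Benjamini-Hochberg adjusted p under 0.05 in limma's trend fit (smallest 0.291, Hspa12b), and of all genes 0% did, with a smallest adjusted p of 0.0731. At an unadjusted p under 0.05, 12 members were lower, against 8.58% of all genes, and 1 was higher, against 1.6% of all genes. The 12 were Hspa12b and Hsph1 of the cytosol, Hspb3 and Hspb1 of the small class, Hspd1, Hspe1 and Dnajc19 of the mitochondria, Hspa5 and Hsp90b1 of the endoplasmic reticulum, the J-domain genes Dnaja1 and Dnajb5, and Bag5. Their CCl4 means were 62.8% to 85.5% of the Control means. The 1 member on the other side was Hspb7.

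How many members lay lower depended on the scaling of the libraries. Under median-of-ratios scaling 42 were lower and 27 higher, under quantile normalization 45 and 24, and with mitochondrial genes left out of the scaling 47 and 22. With the nuclear copies of those genes left out too, 39 were lower and 30 higher, while 60 were lower and 9 higher after scaling each library to the same sum. The share of all genes with a lower mean moved likewise, to 51.8%, 52.4%, 53.4%, 44.8% and 77.6%. Members lower at an unadjusted p under 0.05 then numbered 8, 10, 11, 7 and 16, against 5.62%, 5.84%, 5.73%, 4.22% and 10.6% of all genes. Under median-of-ratios scaling 2 members were higher at that level and under quantile normalization 3, against 5.48% and 5.44% of all genes. Bag5, Dnaja1, Hspa12b, Hspa5 and Hsph1 were lower at an unadjusted p under 0.05 in the deposited RPKM and in all 5 scalings.

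**Figure D2:**
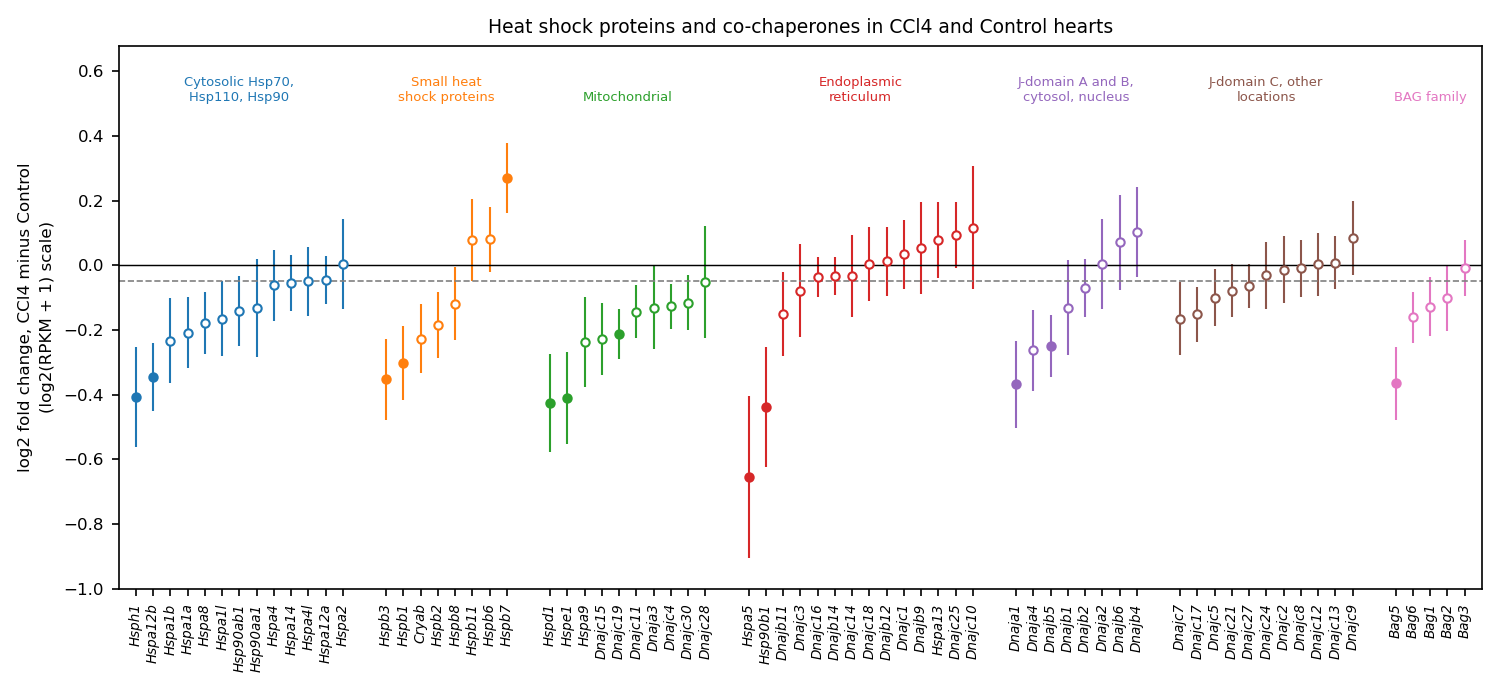
Points are the log2 fold changes of the 69 members (CCl4 minus Control, log2(RPKM + 1) scale, 6 hearts each) and bars their standard errors, with filled points at an unadjusted p under 0.05 and a dashed line at the median of all genes (-0.048). All 10 mitochondrial points lie below 0, Hspa5 is lowest at -0.65, and Hspb7 is the 1 filled point above 0.

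Mean levels in Control hearts ran from 0.524 RPKM (Dnajc27) to 586 RPKM (Hspa8), and a few genes carried most of the message. Hspa8, the constitutive Hsp70 of the cytosol, was at 586 ± 40.7 RPKM, Hsp90ab1, the constitutive Hsp90, at 543 ± 49.9 RPKM and Hspb7, a small heat shock protein of heart and muscle, at 530 ± 49.7 RPKM (SD, n = 6 each). These neighbours did not differ beyond their spread. Cryab, the alpha-B crystallin, followed at 351 ± 36.5 RPKM, and these 4 genes made up 52.3% of the summed RPKM of the members. With Hsp90b1 at 268, Hspa9 at 242 and Bag1 at 237 RPKM the share came to 71.8%. The stress-inducible Hspa1a and Hspa1b were at 1.38 ± 0.257 and 2.16 ± 0.411 RPKM. In CCl4 hearts Hspb7 had the highest mean, 642 ± 88.2 RPKM, above Hspa8 at 520 ± 64.9 and Hsp90ab1 at 495 ± 72.8 RPKM. The summed level of the members was 3355 to 4053 RPKM in Control and 3098 to 3897 RPKM in CCl4 hearts, so the groups overlapped.

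**Figure D3:**
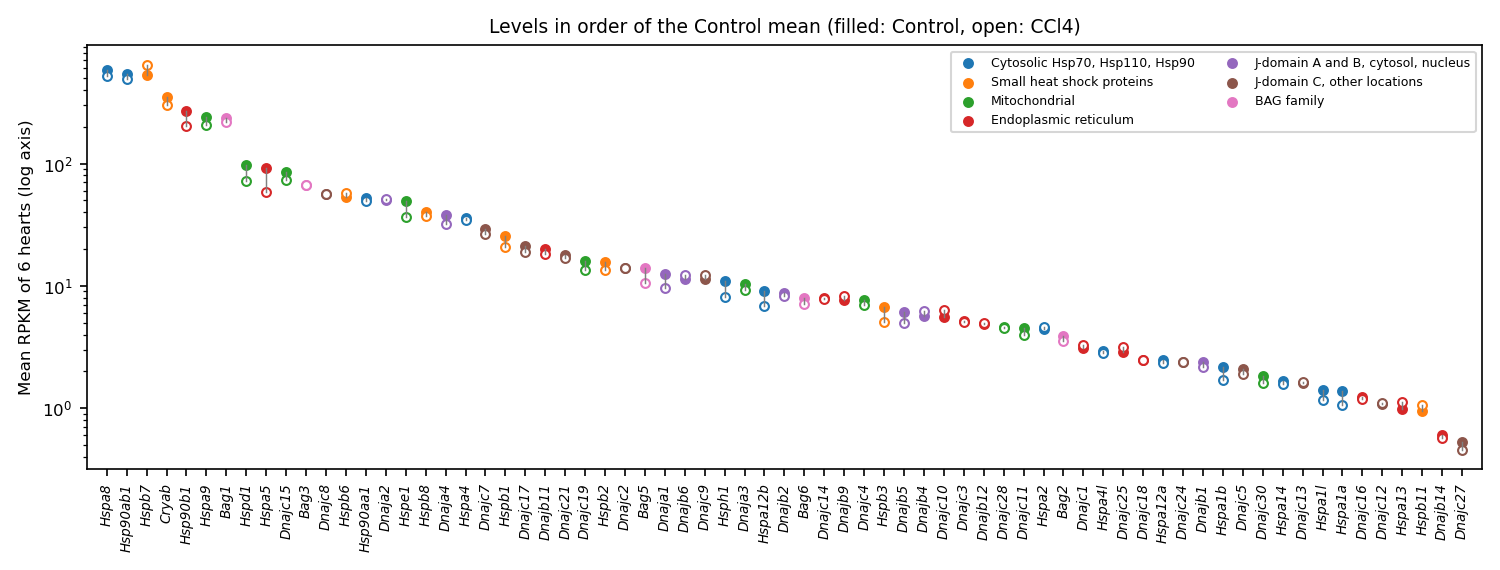
Mean RPKM of 6 hearts (log axis) for each member in the order of the Control mean, filled for Control and open for CCl4, coloured by compartment. Hspa8, Hsp90ab1, Hspb7 and Cryab lead, Dnajc27 is last at 0.524 RPKM in Control hearts, and Hspb7 is open above filled among the leading genes.

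The cytosolic Hsp70, Hsp110 and Hsp90 genes had a median log2 fold change of -0.14, against -0.048 over all genes. By mean 12 of 13 members were lower, against 65.7% of all genes, and 2 of them at an unadjusted p under 0.05, against 8.58%. Under the 5 scalings 8 to 13 were lower and the median ran from -0.22 to -0.046. Hspa12b, a distant Hsp70 relative found mainly in endothelial cells (chr2:131127280-131146321), was at 7.62, 8.86 and 10.9 RPKM (lowest, median, highest) in Control and at 5.24, 7.32 and 7.56 RPKM in CCl4 hearts. Every CCl4 heart was below every Control heart, with CCl4 replicate 4 lowest. No other member had groups that did not overlap, which 0.724% of all genes had in this direction. For Hspa12b the log2 fold change was -0.34 ± 0.10 (SE), with an adjusted p of 0.291 in limma. The 8 endothelial markers summed to 174.6 to 209 RPKM in Control and 112.5 to 170.2 RPKM in CCl4 hearts. Of the 8, 7 were lower at an unadjusted p under 0.05 in limma, against 8.58% of all genes. The part of these markers in the Hspa12b difference was not tested.

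Hsph1, the Hsp110 that exchanges nucleotide on Hsp70, was at 8.24, 10.7 and 13.1 RPKM in Control and at 5.36, 8.41 and 10.6 RPKM in CCl4 hearts. The groups overlapped, with CCl4 replicates 2 and 5 lowest and Control replicate 1 lowest of its group. Its log2 fold change was -0.41 ± 0.15 (SE), with an adjusted p of 0.383 in limma. Hspa8 was at 548, 576 and 649 RPKM in Control and at 449, 520 and 587 RPKM in CCl4 hearts, a log2 fold change of -0.18 ± 0.096 (SE) with an adjusted p of 0.546. CCl4 replicates 2, 4 and 5 were below all Control hearts, and the other 3 were among them.

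The stress-inducible pair was low in both groups. Hspa1a was at 1.06, 1.42 and 1.65 RPKM in Control and at 0.552, 1.14 and 1.37 RPKM in CCl4 hearts, and its log2 fold change was -0.21 ± 0.11 (SE). Hspa1b was at 1.57, 2.23 and 2.74 RPKM in Control and at 1.14, 1.65 and 2.61 RPKM in CCl4 hearts, with -0.23 ± 0.13 (SE). The adjusted p values were 0.539 and 0.565 in limma, and the groups overlapped in both genes. Their sequences are near-identical, so the counting may have split reads between them. Hsp90aa1, the inducible Hsp90, was at 50.0 to 57.0 RPKM in Control and at 31.6 to 69.9 RPKM in CCl4 hearts. The SD over 6 hearts was 2.71 RPKM in Control but 13.3 RPKM under CCl4, with CCl4 replicate 2 lowest and replicate 3 highest. Hsp90ab1 was at 481 to 622 and 391 to 579 RPKM, with a log2 fold change of -0.14 ± 0.11 (SE) and an adjusted p of 0.694. The other 6 members, Hspa1l, Hspa2, Hspa4, Hspa4l, Hspa12a and Hspa14, had log2 fold changes from -0.16 to 0.0045. Of these, Hspa1l shares 71.9% of its exon bases with Gm10501 on the other strand, and whether the counting used strand is not stated in the labels.

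The ratio of 1 chaperone to another within a heart does not depend on library scaling, and 5 such ratios were compared by an exact two-sided permutation test over 924 splits (smallest possible p 0.00216). None of the 5 had an adjusted p under 0.05 with all libraries. The log2 ratio of inducible to constitutive Hsp90 (Hsp90aa1 to Hsp90ab1) was -3.37 ± 0.116 in Control and -3.36 ± 0.237 in CCl4 hearts (SD, n = 6 each). The difference of 0.0059 had an exact p of 0.965 and an adjusted p of 0.965 over the 5 ratios. For inducible to constitutive Hsp70 (Hspa1a plus Hspa1b to Hspa8) the difference was -0.20 (exact p 0.327, adjusted 0.545). For Hspd1 to Hspa8, mitochondrial against cytosolic, it was -0.25 (exact p 0.167, adjusted 0.417), with 5 of 6 CCl4 hearts below the Control median. For Cryab to Hspb1 it was 0.089 (exact p 0.507, adjusted 0.633). The log2 ratio of Hspa5 to Hspa8, endoplasmic reticulum against cytosol, was -2.73 ± 0.515 in Control and -3.22 ± 0.336 in CCl4 hearts, with all 6 CCl4 hearts below the Control median. That difference of -0.48 had an exact p of 0.0909 and an adjusted p of 0.417. Without both libraries numbered 1 it was -0.76, with an adjusted p of 0.0397 in the exact permutation test. Over all alternatives its adjusted p ran from 0.0397 to 0.633.

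**Figure D4:**
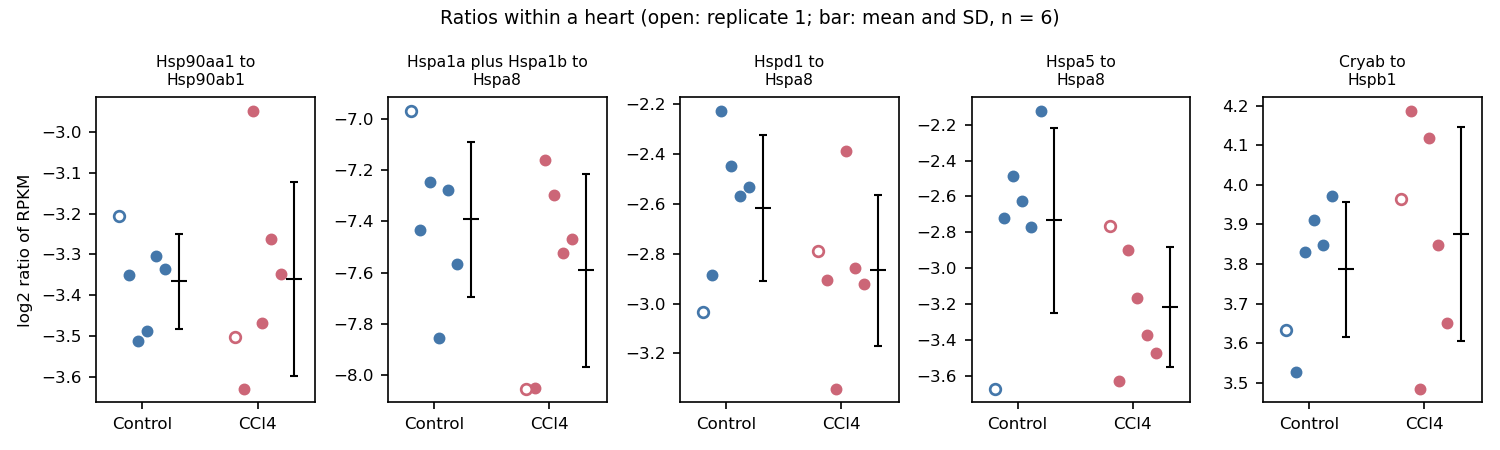
Log2 ratio of RPKM of 2 members within each heart (points; open for replicate 1 of each group) with the group mean and SD (bars, n = 6). In the Hspa5 to Hspa8 panel 5 Control hearts lie from -2.77 to -2.13 and Control replicate 1 is at -3.67, and CCl4 hearts run from -3.63 to -2.77.

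Among the small heat shock proteins 5 of 8 had a lower mean, against 65.7% of all genes, and 3 a higher mean in CCl4 hearts. The median log2 fold change was -0.15, against -0.048 over all genes. The 5 scalings gave the same split, with medians from -0.23 to -0.061. Hspb7, which binds filamin in heart muscle (chr4:141420779-141425311), was at 455, 523 and 586 RPKM in Control and at 511, 661.5 and 736 RPKM in CCl4 hearts. CCl4 replicates 2, 4, 5 and 6 were above all Control hearts and replicates 1 and 3 were among them. In log2 terms the difference was 0.27 ± 0.11 (SE), with an adjusted p of 0.402 in limma. In the deposited RPKM it was the 1 member higher at an unadjusted p under 0.05. Dnajc25 joined it under median-of-ratios scaling, Dnajc25 and Dnajc9 under quantile normalization, and Dnajc10, Hspa13 and Hspb6 with libraries weighted by their spread. The sign held in every scaling, but after scaling to a common sum no member was higher at that level.

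Hspb1, Hspb2, Hspb3, Hspb8 and Cryab had lower means. Hspb3, a muscle small heat shock protein that forms a complex with Hspb2, was at 5.18, 6.86 and 7.94 RPKM in Control and at 4.35, 4.73 and 7.05 RPKM in CCl4 hearts. The overlap came from CCl4 replicate 1 at 7.05 RPKM and Control replicate 1 at 5.18 RPKM, since the other 5 CCl4 hearts were at 4.35 to 4.999 RPKM and the other 5 Control hearts at 5.64 RPKM or more. The log2 fold change was -0.35 ± 0.13 (SE), with an adjusted p of 0.363 in limma. Without both libraries numbered 1 it was -0.50 with an adjusted p of 0.0272, and over all alternatives the adjusted p ran from 0.00464 to 0.9996. Hspb1, which guards actin filaments, was at 22.8, 25.2 and 29.95 RPKM in Control and at 15.7, 21.2 and 24.2 RPKM in CCl4 hearts. All 6 CCl4 hearts were below the Control median, and the log2 fold change was -0.30 ± 0.12 (SE) with an adjusted p of 0.384.

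Cryab, which binds desmin and titin, was at 282, 359 and 381 RPKM in Control and at 256, 292 and 378 RPKM in CCl4 hearts. Control replicate 1 at 282 RPKM lay among the CCl4 hearts and CCl4 replicate 1 at 378 RPKM among the Control hearts, and the other hearts did not overlap (345 to 381 against 256 to 306 RPKM). The log2 fold change was -0.23 ± 0.11 (SE), with an adjusted p of 0.5004 in limma and 0.0521 without both libraries numbered 1. Hspb2, the head-to-head neighbour of Cryab, whose annotated exons overlap those of Cryab by 252 bases on the other strand, had a log2 fold change of -0.18. Hspb8, the partner of Bag3, had -0.12, and the other 2 members, Hspb6 (0.080) and Hspb11 (0.079), had higher means.

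All 10 mitochondrial members had a lower mean in CCl4 hearts, with a median log2 fold change of -0.18, and 3 were lower at an unadjusted p under 0.05. Under the 5 scalings 9 or 10 were lower, the median ran from -0.25 to -0.099, and 0 (median-of-ratios) to 4 were at that level. Of all genes 65.7% had a lower mean and 8.58% were lower at that level in the deposited RPKM. In the deposited RPKM the median of the 10 cardiomyocyte markers was also -0.18, and its part in this result was not tested. Hspd1 (Hsp60, chr1:55077835-55088243) and Hspe1 (Hsp10, chr1:55088132-55091307) form the barrel and lid of the chaperonin of the matrix and lie head to head, with annotated exons that overlap by 112 bases. Their RefSeq promoter windows (250 bases before to 50 after a start, GRCm38.p6) share 1 heat shock element, the site bound by heat shock factors. It was searched on both strands as 3 alternating repeats, GAA, TTC and GAA or TTC, GAA and TTC, with any 2 bases between repeats. Of 27025 genes with a window 179 (0.662%) held it, and of the 56 members with a window 4 (7.14%) did, the others being Hsph1 and Dnajb6. The elements are shown with 5 bases on each side, as the sequences that members of different compartments share, with the element in capitals. Overlapping matches were merged, which makes the Hspd1 and Hspe1 run longer.
Hspd1 (chr1:55088054-55088081, minus strand, element from position -144): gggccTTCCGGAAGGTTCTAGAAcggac
Hspe1 (the same bases, plus strand, from position -89): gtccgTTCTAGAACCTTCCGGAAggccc
Dnajb6 (chr5:29735847-29735869, plus strand, from position -46): tccgaGAATCTTCCGGAAcgcta
Hsph1 (chr5:149636283-149636305, minus strand, from position 15): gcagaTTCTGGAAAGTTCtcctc
Positions are counted from the RefSeq start. A match is a description of the letters and not of factor binding. Of the 52 tested genes with the element 39 had a lower mean in CCl4 hearts and the median log2 fold change was -0.080. These 52 include the lower members Hspd1, Hspe1 and Hsph1, and Hspd1 and Hspe1 share 1 element. Of the 9058 tested genes with a window 67.5% were lower and the median was -0.050.

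Hspd1 was at 67.3, 97.4 and 119 RPKM in Control and at 56.0, 71.3 and 88.5 RPKM in CCl4 hearts, a log2 fold change of -0.42 ± 0.15 (SE) with an adjusted p of 0.363 in limma. Hspe1 was at 31.4, 53.5 and 55.2 RPKM in Control and at 31.8, 35.0 and 43.3 RPKM in CCl4 hearts, with -0.41 ± 0.14 (SE) and an adjusted p of 0.349. In both genes all 6 CCl4 hearts were below the Control median and Control replicate 1 was the lowest Control heart. For Hspe1 the other 5 Control hearts were at 50.5 to 55.2 RPKM, above every CCl4 heart. Without both libraries numbered 1 Hspe1 had a log2 fold change of -0.58 with an adjusted p of 0.0116, and Hspd1 of -0.57 with 0.0572. Over all alternatives the adjusted p of Hspe1 ran from 0.00530 to 0.9996 and that of Hspd1 from 0.00835 to 0.9996.

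Dnajc19, a J-domain protein of the import motor at the inner membrane, was at 14.1, 16.2 and 17.2 RPKM in Control and at 12.4, 13.5 and 15.4 RPKM in CCl4 hearts. This was a log2 fold change of -0.21 ± 0.077 (SE), with an adjusted p of 0.367, and CCl4 replicate 4 was the only CCl4 heart above any Control heart. Dnajc15, its paralog, was at 64.4 to 99.3 RPKM in Control and at 64.03 to 85.3 RPKM in CCl4 hearts, with -0.23 ± 0.11 (SE) and an adjusted p of 0.511. Hspa9, the Hsp70 of the matrix, was at 182, 239 and 300 RPKM in Control and at 148, 207 and 262 RPKM in CCl4 hearts, with -0.24 ± 0.14 (SE) and an adjusted p of 0.590. The groups overlapped, and CCl4 replicate 3 was lowest in Hspd1, Hspe1, Hspa9 and Dnajc15. The other 5 members, Dnaja3, Dnajc4, Dnajc11, Dnajc28 and Dnajc30, had log2 fold changes from -0.14 to -0.050.

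**Figure D5:**
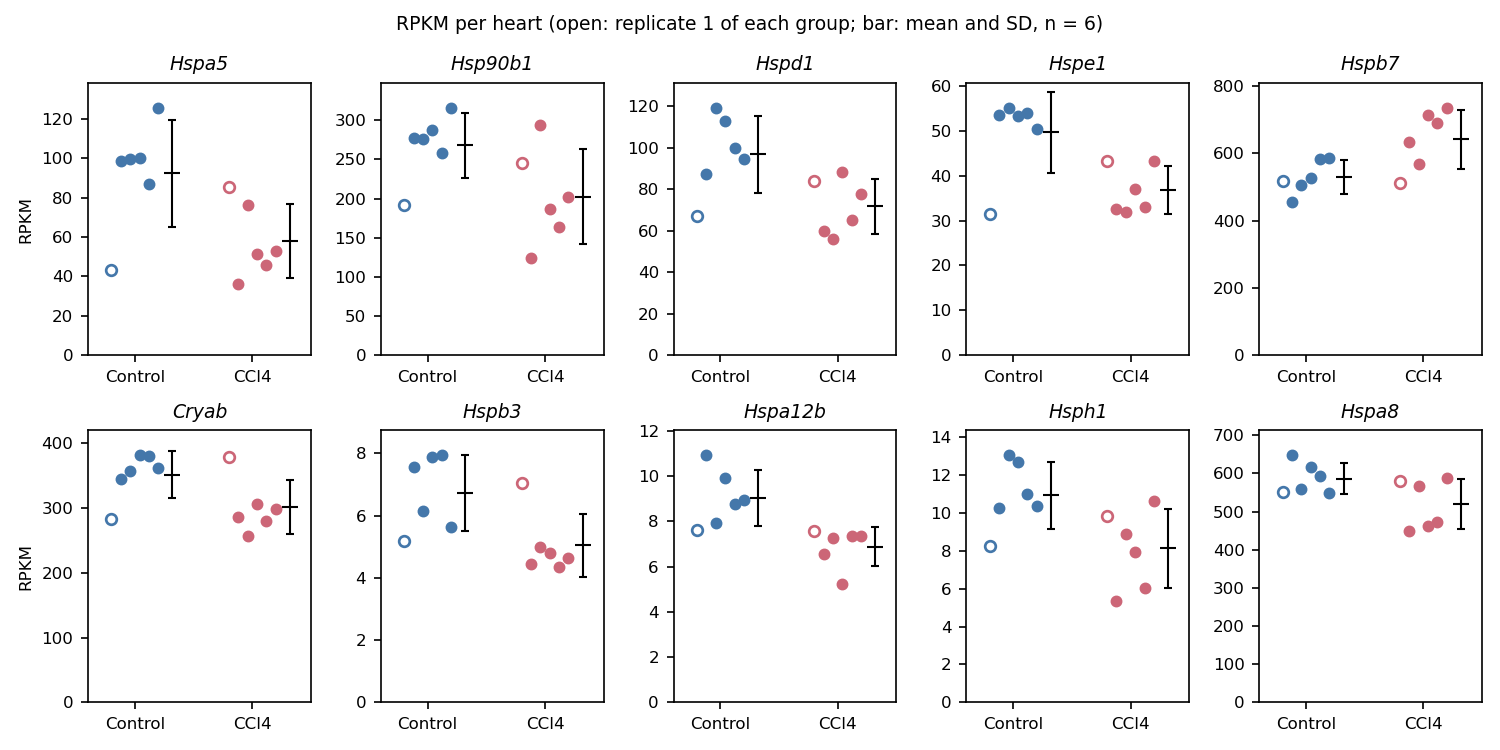
RPKM in each heart for 10 members (points; open for replicate 1 of each group), with the mean and SD of 6 hearts beside them. In Hspa5, Cryab and Hspb3 the open Control point lies among the CCl4 hearts and in Hspe1 just below them, Hspa12b has no overlap between groups (7.62 to 10.9 against 5.24 to 7.56), and Hspb7 is higher in 4 CCl4 hearts than in any Control heart.

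In the endoplasmic reticulum group the most abundant genes, Hsp90b1 and Hspa5, had the lowest fold changes, and the other 12 members lay between -0.15 and 0.12. The mean was lower for 7 of 14 members and higher for 7, while 65.7% of all genes had a lower mean. The median log2 fold change was -0.014, against -0.048 over all genes. The group median turned positive under 4 of the 5 scalings (0.032 to 0.063) and stayed negative after scaling to a common sum (-0.063). Hspa5 (BiP, chr2:34771970-34777547), the Hsp70 of the lumen, and Hsp90b1 (Grp94, chr10:86690209-86705509), its Hsp90, are the leading folding chaperones there. Both are targets of the unfolded protein response, which acts on an endoplasmic reticulum stress element, searched here on both strands as CCAAT and CCACG with any 9 bases between them (CGTGG and ATTGG when read from the other strand). It stood in the windows of 37 of 27025 genes (0.137%) and of 3 of 56 members (5.36%), Hspa5, Hsp90b1 and Dnajc3. The 4 matches are shown with 5 bases on each side, because Hspa5 and Hsp90b1 have the lowest fold changes of the group, and the capitals mark the element.
Hspa5 (chr2:34772020-34772048, plus strand, from position -65): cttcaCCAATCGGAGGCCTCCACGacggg
Hsp90b1 distal (chr10:86705633-86705661, minus strand, from position -212): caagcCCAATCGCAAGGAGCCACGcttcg
Hsp90b1 proximal (chr10:86705528-86705556, minus strand, from position -107): gagtgCGTGGTGAGGCACGATTGGtgagt
Dnajc3 (chr14:118937822-118937850, plus strand, from position -105): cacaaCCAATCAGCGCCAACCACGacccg
No match overlapped a heat shock element match. In GENCODE M21 the bases printed for Hspa5 and for the heat shock elements touch an annotated exon, and those for Hsp90b1 and Dnajc3 do not. The search was prompted by Hspa5 and Hsp90b1, so both are left out of the count over genes. Of the 13 other tested genes with this element 12 had a lower mean in CCl4 hearts, with a median log2 fold change of -0.12, against 67.5% lower and a median of -0.050 over all tested genes with a window. The smallest unadjusted p of the 13 in limma was 0.0968 (Pdia6).

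Hspa5 was at 43.2, 99.1 and 126 RPKM in Control and at 36.3, 52.2 and 85.4 RPKM in CCl4 hearts. Control replicate 1 at 43.2 RPKM lay among the CCl4 hearts, while the other 5 Control hearts, at 86.9 to 126 RPKM, were above all of them. CCl4 replicates 1 and 3 were the highest CCl4 hearts and replicate 2 the lowest. For Hspa5 the log2 fold change was -0.65 ± 0.25 (SE), the lowest of the members, with an adjusted p of 0.384 in limma. Without both libraries numbered 1 it was -0.98 ± 0.17 (SE) with an adjusted p of 0.0137, and over all alternatives the adjusted p ran from 0.00473 to 0.9996.

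Hsp90b1 was at 192, 277 and 316 RPKM in Control and at 124, 194 and 294 RPKM in CCl4 hearts. The groups overlapped, with CCl4 replicate 3 at 294 RPKM above 5 of 6 Control hearts and Control replicate 1 at 192 RPKM the lowest of its group. The log2 fold change was -0.44 ± 0.19 (SE), with an adjusted p of 0.430, and 0.124 without both libraries numbered 1. The gene holds Gm15344 and Gm25745 on its own strand, listed at means of 836 and 761 RPKM, so its value may depend on how shared reads were assigned. Dnajb11, the J-domain partner of Hspa5 in the lumen, was at 17.9 to 21.5 RPKM in Control and at 12.9 to 26.2 RPKM in CCl4 hearts, with -0.15 ± 0.13 (SE) and an adjusted p of 0.733.

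Of the 12 members other than Hspa5 and Hsp90b1, 11 had a larger SD among CCl4 than among Control hearts. CCl4 replicate 3 was the highest CCl4 heart in 10 of them, and CCl4 replicate 1 or 2 was the lowest in 11. This order was not particular to these members. Over all genes tested the median deviation from the Control mean was -0.17, -0.25 and 0.14 in CCl4 replicates 1, 2 and 3. For the class C members outside this compartment and the mitochondria it was -0.19, -0.23 and 0.15. How often the counts above held over all genes was not determined. Dnajc10, a reductase with a J domain and named after its values were seen, was at 4.84 to 7.35 RPKM in Control and at 3.71 to 9.81 RPKM in CCl4 hearts. Dnajc3, which restrains the kinase Perk, was at 4.86 to 5.48 RPKM in Control and at 3.22 to 7.93 RPKM in CCl4 hearts. Its log2 fold change was -0.078 ± 0.14 (SE). In the 4 hearts per group with high Xist it was 0.10, and in the 2 per group with low Xist -0.44. Its promoter window holds the same element as that of Hspa5. Dnajc25 had a log2 fold change of 0.094 ± 0.10 (SE), with an adjusted p of 0.804. The other 8 members, Dnajb9, Dnajb12, Dnajb14, Dnajc1, Dnajc14, Dnajc16, Dnajc18 and Hspa13, had log2 fold changes from -0.036 to 0.078.

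Of the 8 J-domain genes of classes A and B in the cytosol and nucleus, 5 had a lower mean, against 65.7% of all genes. The median log2 fold change was -0.10, against -0.048 over all genes. Under the 5 scalings 4 to 6 were lower and the median ran from -0.17 to -0.034. Dnaja1, a main partner of Hspa8, was at 10.8, 12.3 and 14.6 RPKM in Control and at 6.75, 9.39 and 12.2 RPKM in CCl4 hearts. All 6 CCl4 hearts were below the Control median, with replicates 2, 4, 5 and 1 below every Control heart. In log2 terms the difference was -0.37 ± 0.13 (SE), with an adjusted p of 0.366 in limma. Dnajb5 was at 4.86, 6.32 and 7.07 RPKM in Control and at 4.37, 5.06 and 5.40 RPKM in CCl4 hearts. Its log2 fold change was -0.25 ± 0.095 (SE), with an adjusted p of 0.383, and the overlap was with Control replicates 1 and 6.

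Dnaja4 was at 32.9 to 44.2 RPKM in Control and at 25.0 to 42.9 RPKM in CCl4 hearts, with a log2 fold change of -0.26 ± 0.13 (SE) and an adjusted p of 0.502, and 44.1% of its exon bases are shared with Wdr61. Dnajb1 (Hsp40), the stress-inducible partner of Hsp70, was at 2.01 to 2.82 RPKM in Control and at 1.101 to 3.21 RPKM in CCl4 hearts. CCl4 replicates 3 and 6 were above all Control hearts, and CCl4 replicates 1, 2 and 4 were below them. Dnaja2, the most abundant of the group, was at 42.9 to 59.2 and 38.9 to 67.9 RPKM, with a log2 fold change of 0.0051 ± 0.14 (SE) that turned negative after scaling to a common sum. The remaining members were Dnajb2 (-0.070), Dnajb6 (0.072) and Dnajb4 (0.10). Dnajb6 carries a heat shock element, as do Hspd1, Hspe1 and Hsph1, and its groups, 9.97 to 13.9 and 8.15 to 16.6 RPKM, overlapped.

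The 11 class C members outside the mitochondria and the endoplasmic reticulum had the narrowest range of fold changes, -0.17 to 0.085, and none was at an unadjusted p under 0.05. The median was -0.030 and turned positive in the same 4 scalings (0.0091 to 0.036). Dnajc17, a nuclear protein tied to splicing, was at 19.4 to 22.4 RPKM in Control and at 15.9 to 22.1 RPKM in CCl4 hearts, with an adjusted p of 0.561. Dnajc7, which binds Hsp70 and Hsp90, was at 28.2 to 30.8 RPKM in Control and at 18.3 to 30.8 RPKM in CCl4 hearts, with CCl4 replicate 1 lowest. Its log2 fold change was -0.17 ± 0.11 (SE), and without CCl4 replicate 1 it was -0.069. Dnajc5, the cysteine string protein of vesicles, had -0.099 and Dnajc21 -0.078. Dnajc8, the most abundant of the group, was at 56.6 ± 4.01 and 56.3 ± 5.87 RPKM (SD, n = 6 each). The other 6 members, Dnajc2, Dnajc9, Dnajc12, Dnajc13, Dnajc24 and Dnajc27, had log2 fold changes from -0.064 to 0.085.

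All 5 BAG members had a lower mean in CCl4 hearts, as did 65.7% of all genes, with a median log2 fold change of -0.13 against -0.048 over all genes. Under the 5 scalings 4 or 5 were lower and the median ran from -0.20 to -0.033. Bag5, which has several BAG domains (chr12:111709488-111713257), was at 11.8, 14.1 and 16.4 RPKM in Control and at 7.989, 10.54 and 12.99 RPKM in CCl4 hearts. CCl4 replicate 3 was the only CCl4 heart above any Control heart, with replicate 2 lowest. The log2 fold change was -0.37 ± 0.11 (SE), with an adjusted p of 0.296 in limma. Bag6, which guards membrane proteins before insertion, was at 7.35 to 8.23 RPKM in Control and at 6.08 to 8.08 RPKM in CCl4 hearts, with -0.16 ± 0.079 (SE) and an adjusted p of 0.512. Bag1, the most abundant of the family, was at 237 ± 19.3 and 217 ± 22.9 RPKM, and Bag2 at 3.92 ± 0.782 and 3.55 ± 0.325 RPKM (SD, n = 6 each). Bag3, which works with Hspb8 in the removal of damaged sarcomere proteins, was at 63.98, 64.8 and 75.1 RPKM in Control and at 53.9, 69.0 and 71.9 RPKM in CCl4 hearts. Its log2 fold change was -0.0081 ± 0.088 (SE), with an adjusted p of 0.984, and its sign was positive in 4 of the 5 scalings.

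Genes that work with the members were followed as lists. Over all genes tested 65.7% had a lower mean and 8.58% were lower at an unadjusted p under 0.05 in limma. The median log2 fold change of all genes was -0.048. Of 3 tested heat shock factor genes Hsf2 (log2 fold change 0.010) and Hsf4 (0.057) had a higher mean and 1 a lower mean. That 1, Hsf1, the main activator of the heat shock response, was at 3.37 to 4.81 RPKM in Control and at 2.95 to 4.68 RPKM in CCl4 hearts (log2 fold change -0.16, adjusted p 0.635 in limma). Of 24 other Hsp90 and Hsp70 co-chaperones 20 were lower by mean, 4 of them at an unadjusted p under 0.05, with a median of -0.10. Unc45b, the myosin chaperone of striated muscle, was at 20.3 to 27.5 RPKM in Control and at 13.3 to 23.5 RPKM in CCl4 hearts, with -0.37 ± 0.12 (SE) and an adjusted p of 0.333. Of 14 subunits of the cytosolic chaperonin and prefoldin 13 were lower by mean, 3 at that level, with a median of -0.15. Pfdn6, a prefoldin subunit, had -0.21 and an adjusted p of 0.388.

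Of 14 other mitochondrial chaperones and proteases 10 were lower by mean (65.7% of all genes) and 1 at an unadjusted p under 0.05 (8.58% of all genes), with a median of -0.11. That 1 was Clpx, the unfoldase of the matrix protease, at 15.9, 21.3 and 25.6 RPKM in Control and at 12.7, 15.7 and 17.6 RPKM in CCl4 hearts. The overlap was with Control replicate 1, and the log2 fold change was -0.40 ± 0.11 (SE) with an adjusted p of 0.268. Of 19 tested other chaperones of the endoplasmic reticulum 14 were lower by mean and none at that level, with a median of -0.090. Fkbp2, a prolyl isomerase of the lumen, had the smallest p of them (log2 fold change -0.24, adjusted p 0.525). No gene of these lists had an adjusted p under 0.05 with all libraries.

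The pair of libraries numbered 1, the Xist classes and CCl4 replicate 3 moved the counts. Without both libraries numbered 1, Hspa5, Hspe1 and Hspb3 passed an adjusted p under 0.05 in limma, as 1.57% of all genes did in that direction and 0.724% in the other. Both libraries were left out after their values in these members were seen, so the passing is in part built in. In that fit 16 members were lower at an unadjusted p under 0.05, against 10.3% of all genes. Hspa12b, Hspa5, Hspe1, Dnajc15, Hspb3 and Cryab then had groups that did not overlap, against 4.17% of all genes. Among hearts with high Xist (4 against 4) no member was at an unadjusted p under 0.05, against 1.97% lower among all genes. Among hearts with low Xist (2 against 2) 18 members were lower at that level, against 8.39% of all genes, and Hspa5 and Hsp90b1 passed an adjusted p under 0.05, as 0.589% of all genes did in that direction. The log2 fold change of Hspa5 was -0.40 in the first class and -1.16 in the other, and that of Hsp90b1 was -0.20 and -0.91. The low-Xist CCl4 hearts are replicates 2 and 5. Of these, replicate 2 had the lowest CCl4 value in 38 members and a median deviation of -0.25 from the Control mean over all genes. Both libraries numbered 1 and CCl4 replicate 3 are in the high-Xist class. Xist class and the libraries that fall in it cannot be told apart here. The difference between the classes was tested as an interaction in limma and no gene passed, with a smallest adjusted p of 0.997 among the members. At an unadjusted p under 0.05 it held 254 genes (1.8%), 5 of them members. Without CCl4 replicate 3, 19 members were lower at an unadjusted p under 0.05, against 14.2% of all genes. With libraries weighted by their spread (weights from 0.258 for CCl4 replicate 3 to 5.7 for CCl4 replicate 5), 17 members passed an adjusted p under 0.05, 16 lower and Hspb7 higher, as did 10.5% of all genes in the lower and 5.47% in the higher direction.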

How the data were processed

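RNA of 12 hearts (6 Control, 6 CCl4) was extracted with TRIzol and made into libraries with a stranded kit, per the labels' protocols. The authors deposited RPKM values for 31722 gene symbols. The tools named in the submitters' processing notes are Trimmomatic 0.36, Subread 1.5.1 and its counter featureCounts, and the build is GRCm38. The aligner, annotation release and strand setting are not given in the sources used here.

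Groups came from the sample titles. Genes at 0.5 RPKM or more in at least 6 of 12 hearts (14087) were fitted with limma 3.58.1 in R 4.3.3 (trend, two-sided) as log2(RPKM + 1), which understates fold changes of low genes. P-values were adjusted by Benjamini-Hochberg over all of them. Multiplying RPKM by exon length (GENCODE M21, 95.4% of symbols matched) gave whole steps, within 0.05, for 92.5% to 93.8% of low values, hence the relative depths. Step totals are relative, and voom on them was an alternative. Ratios were tested by exact permutation. The fit was tested on simulated data. Coordinates are 1-based GRCm38 from GENCODE M21, and promoter windows are RefSeq's on GRCm38.p6 (56 of 69 members). Per compartment, the text names the 4 members of smallest p, the most abundant, and 19 core chaperones. Of each pathway list it names the gene of smallest p, and it adds members without overlap or next to the RPKM minimum. Members, lists and tests were chosen with earlier results of these data known. In addition, matplotlib 3.10.9, numpy 2.4.6 and pandas 2.3.3 under Python 3.11.15 made tables and plots. Alternatives covered pseudocount, filter, scaling, weights, robust moderation, replicate block, an atrial score, Xist class and each library left out.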

Additional observations from a re-analysis of the deposited data

Results flagged for a closer look

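Of 98 groups of 6 values looked at, for the named genes and the 5 ratios, 7 held a heart whose gap to its nearest neighbour was above Dixon's critical share of the group's range, and chance marks about 1 in 20 groups. Control replicate 1 was far below the other Control hearts for Hspe1, at 31.4 RPKM, and for Cryab, at 282 RPKM. CCl4 replicate 1 was far above the other CCl4 hearts for Hspb3, at 7.05 RPKM, and for Pfdn6, at 38.8 RPKM. Bag3 was high in Control replicate 5, at 75.1 RPKM, and Bag6 was low in Control replicate 6, at 7.35 RPKM. Fkbp2 was high in CCl4 replicate 3, at 117 RPKM. The causes were not tested.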

How the results depend on the processing

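No member had an adjusted p under 0.05 in limma under any other pseudocount, filter, scaling, robust moderation, the replicate block, voom on recovered steps, an atrial or Xist covariate, or with any 1 library left out. Exceptions were array weights (17 members), the low-Xist hearts (Hspa5, Hsp90b1) and the fit without both libraries numbered 1 (Hspa5, Hspe1, Hspb3). Of all genes, 770 were higher and 1479 lower under array weights, 15 and 83 in low-Xist hearts, 102 and 221 without both libraries numbered 1, and 1 was lower with the atrial covariate. Calls at an unadjusted p under 0.05 follow, with the number among all 14087 genes in brackets. Members higher numbered 2 (772) under median-of-ratios scaling, 3 (766) under quantile normalization, 0 (124) under common-sum scaling and 4 (1678) under array weights. In high-Xist and low-Xist hearts they numbered 0 (112) and 0 (251). Members lower numbered 26 (2849) under array weights and 0 (278) in high-Xist hearts. With mitochondrial genes and their copies out of the scaling they numbered 7 (594). Median log2 fold changes in high-Xist and low-Xist hearts were -0.032 and -0.37 for the cytosolic, -0.090 and -0.27 for the small, -0.15 and -0.26 for the mitochondrial, 0.042 and -0.10 for the endoplasmic reticulum, -0.033 and -0.24 for the class A and B, 0.013 and -0.16 for the class C and -0.099 and -0.22 for the BAG members. The causes were not tested.

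Of the 69 members, 5 to 13 changed sign under each of the 5 scalings, 11 in high-Xist and 12 in low-Xist hearts, 6 under array weights, 5 without both libraries numbered 1, 3 with the atrial covariate, 3 under voom and up to 10 with 1 library left out. Examples follow. Bag3 was at 0.058, 0.076, 0.050 and 0.086 and Dnajc8 at 0.056, 0.060, 0.049 and 0.084 under median-of-ratios, quantile and both mitochondrial scalings. Bag3 was at 0.0061 under array weights and 0.013 in low-Xist hearts, and Dnajc8 at 0.013 in high-Xist hearts and 0.0079 without both libraries numbered 1. Dnaja2 was at -0.070 under common-sum scaling and -0.064 in low-Xist hearts, where Dnajc25 was at -0.10. Hsp90aa1 was at 0.036, Dnajc3 at 0.10 and Hspb6 at -0.042 in high-Xist hearts, Hspb11 at -0.14 in low-Xist hearts, and Dnajc21 at 0.012 with mitochondrial genes and copies out. The ratio of Hspa5 to Hspa8 passed at -0.76 without both libraries numbered 1.

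With each library left out in turn, 0 to 7 genes were higher and 0 to 40 lower at an adjusted p under 0.05, most without CCl4 replicate 1 (7 and 40) and Control replicate 1 (6 and 25). Members lower at an unadjusted p under 0.05 ranged from 10 to 19 and higher from 0 to 1. Of all 14087 genes 925 were lower without Control replicate 2 (10 members) and 2004 without CCl4 replicate 3 (19 members). Fold changes ranged from -0.032 to 0.050 for Bag3, -0.081 to 0.077 for Dnaja2 and -0.056 to 0.029 for Dnajc8, and the ratio of Hsp90aa1 to Hsp90ab1 from -0.076 to 0.060. With the replicate number as a block, 9 members were lower and 1 higher at an unadjusted p under 0.05, against 867 and 193 of all 14087 genes. No member passed adjustment in that fit. The deviations of same-numbered hearts correlated at -0.47, 0.23, -0.024, -0.25, 0.18 and 0.14 for numbers 1 to 6, and only numbers 2 and 6 correlated best with their own. The low-Xist hearts carry the numbers 2 and 5 in both groups. Whether the numbers pair the hearts cannot be decided from these correlations, and the labels do not say. Depth limits the least abundant members most, such as Dnajc27 at 0.524 and 0.459 RPKM, in the shallowest library (Control replicate 6, 26352405 steps).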
